A study of Homo sapiens with 6 samples.

Results

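Kinesins are the motor proteins that walk along or disassemble microtubules, and their transcripts were followed in Kasumi-1 cells after silencing of PHF19. Members were taken by gene symbol, as every counted gene named KIF with a number, without antisense or pseudogene symbols, plus KIFC1, KIFC2 and KIFC3. This gave 42 genes of the 26410 rows in the count table. By known role they were divided into 14 mitotic kinesins, 17 transport kinesins and 11 others with ciliary, signalling or mixed roles. Kasumi-1 is an established cell line from human acute myeloid leukaemia and is positive for the RUNX1::RUNX1T1 fusion gene. The shPHF19 group had 3 libraries from cells that received a lentiviral hairpin against PHF19, which encodes a Polycomb-like partner of Polycomb repressive complex 2. The control group had 3 libraries from cells that, per the treatment protocol, received a scrambled hairpin, although the treatment label of these samples reads WT. Both groups carried a lentiviral construct and were kept in puromycin (2 µg/ml), which was added 48 h after delivery for at least 24 h. The hairpin is described as a single construct, so its other targets cannot be told apart from PHF19. The labels do not say whether libraries came from separate cultures, so the spread behind each p-value may be technical.

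Kinesins share a motor domain that couples ATP hydrolysis to movement or to removal of tubulin from microtubule ends. Dividing cells use the mitotic kinesins to separate spindle poles, to attach and align chromosomes and to build the midzone where the cell is cut, and most of these genes are transcribed mainly in the G2 and M phases. Transport kinesins carry vesicles, mitochondria and other cargo and are used throughout the cell cycle, with several best known from neurons. The promoters of many G2/M genes hold a cell cycle genes homology region (CHR), to which the DREAM and MYB-MuvB complexes bind, and upstream of it CCAAT boxes, the site of the factor NF-Y.

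Promoter stretches are given as examples for 7 mitotic members and 1 transport member, as RefSeq has them on GRCh38.p14. Each runs from 95 bases before to 10 bases after the annotated start. They do not stand for their whole classes. The mitotic KIF2C and KIF2B, whose windows hold neither a CHR match nor a CCAAT box, and the transport KIF5B, which holds both, are not printed. Capitals mark CHR matches (TTTGAA or TTCGAA) and CCAAT boxes, on either strand, so that TTCAAA and ATTGG are matches on the opposite strand. KIFC1 lies at chr6:33391728-33391832 (plus strand), KIF18B at chr17:44947764-44947868 (minus strand), KIF4A at chrX:70290009-70290113 (plus strand) and KIF22 at chr16:29790656-29790760 (plus strand). KIF11 lies at chr10:92593035-92593139 (plus strand), KIF18A at chr11:28108147-28108251 (minus strand), KIF20A at chr5:138179017-138179121 (plus strand) and KIF3C at chr2:25982488-25982592 (minus strand).
KIFC1: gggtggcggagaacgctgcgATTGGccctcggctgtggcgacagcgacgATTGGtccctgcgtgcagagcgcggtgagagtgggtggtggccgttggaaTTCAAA
KIF18B: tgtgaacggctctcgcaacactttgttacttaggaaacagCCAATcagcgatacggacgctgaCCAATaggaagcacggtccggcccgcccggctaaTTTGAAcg
KIF4A: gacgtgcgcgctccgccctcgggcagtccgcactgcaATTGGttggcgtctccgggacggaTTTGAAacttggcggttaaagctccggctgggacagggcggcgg
KIF22: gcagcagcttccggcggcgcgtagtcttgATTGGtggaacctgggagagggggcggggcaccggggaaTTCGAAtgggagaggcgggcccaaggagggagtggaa
KIF11: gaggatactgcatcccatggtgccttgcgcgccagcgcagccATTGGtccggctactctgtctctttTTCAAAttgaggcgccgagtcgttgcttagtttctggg
KIF18A: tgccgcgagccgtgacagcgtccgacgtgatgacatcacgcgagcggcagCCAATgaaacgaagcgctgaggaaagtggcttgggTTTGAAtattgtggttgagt
KIF20A: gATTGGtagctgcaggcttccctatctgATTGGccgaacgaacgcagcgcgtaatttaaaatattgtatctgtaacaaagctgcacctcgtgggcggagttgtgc
KIF3C: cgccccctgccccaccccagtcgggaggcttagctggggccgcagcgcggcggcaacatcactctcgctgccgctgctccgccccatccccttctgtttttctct

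RefSeq windows, from 250 bases before to 50 after the start, were found for 34 of the 42 kinesins. The 8 without a window were the transport genes KIF5A, KIF13B, KIF21B, KIFC2 and KIFC3 and the others KIF19, KIF26B and KIF27. Their promoters, among them those of the strongly lowered KIF21B and KIFC3, were therefore not searched. A CHR match was present for 11 of 14 mitotic genes, 1 of 12 transport genes (KIF5B) and 1 of 8 others (KIF24). Of all 35116 promoter windows of this length 16.4% held such a match, and of all 27305 genes 19.5% had at least 1 window with it. CCAAT boxes were found for 11 of 14 mitotic, 4 of 12 transport and 3 of 8 other kinesin genes, against 34.6% of all windows and 39.7% of all genes. Both motifs, in any order, shared a window for 10 of 14 mitotic, 1 of 12 transport and 1 of 8 other kinesin genes. The same held for 6.4% of all windows and 7.8% of all genes. The only transport match, in KIF5B, lay 140 bases before the start. Its CCAAT box lay 59 bases before the start, and so not upstream of the CHR match. KIF24, a centriolar kinesin that binds CP110, held its match 2 bases after the start with a CCAAT box 47 bases before the start. The mitotic genes KIF20A, KIF2C and KIF2B had no CHR match with these letters. A match describes the sequence of the window and is not evidence that a factor binds there.

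**Figure D1:**
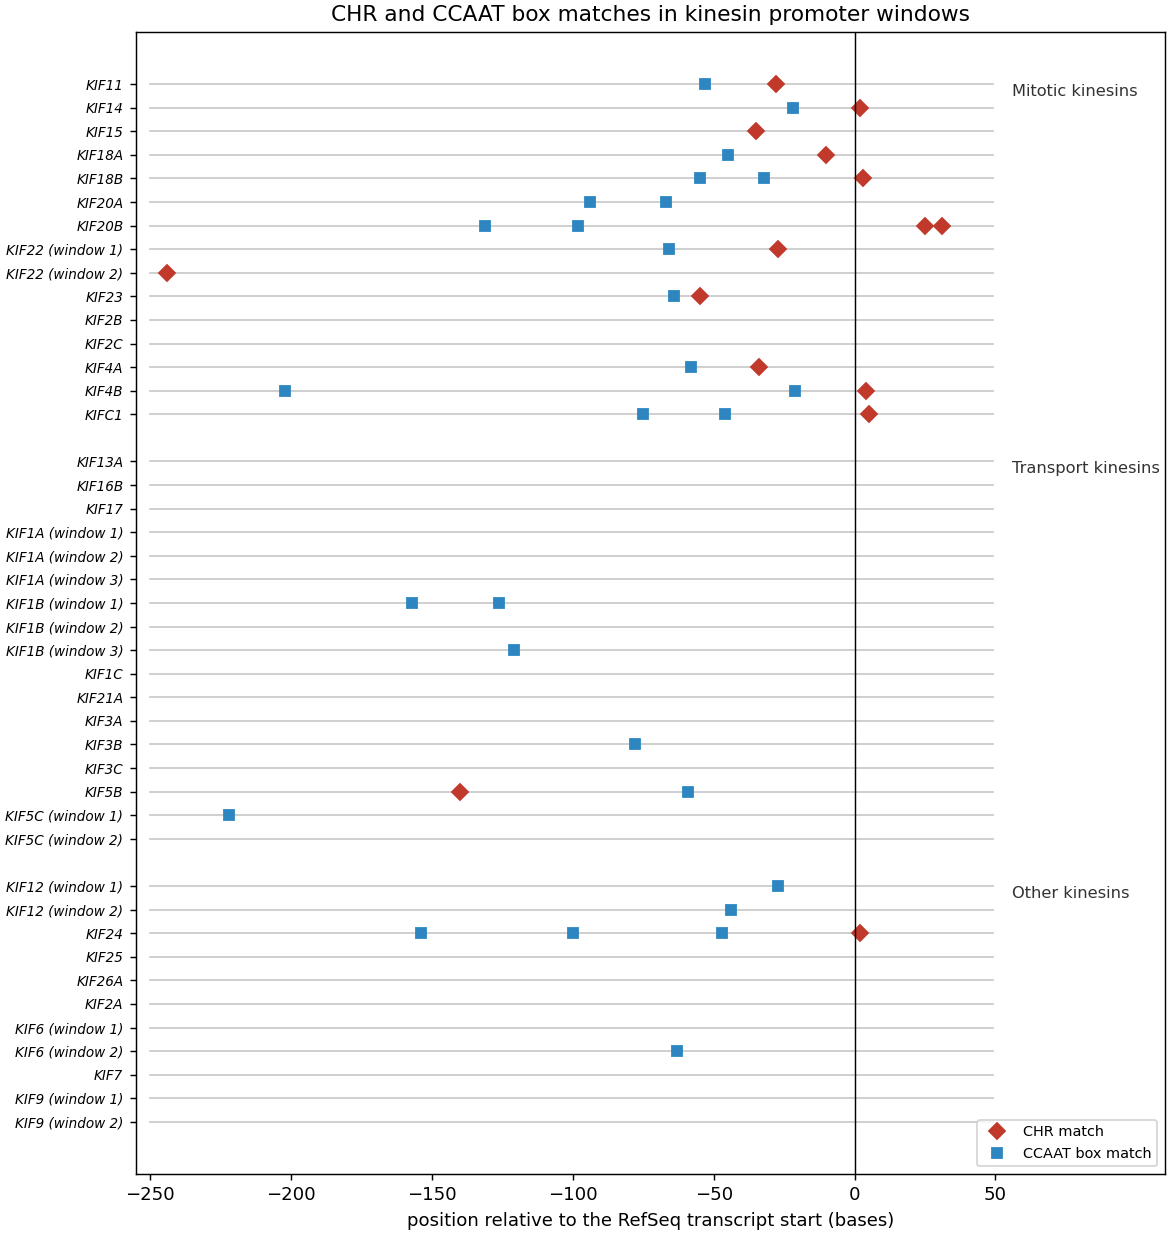
Positions of CHR matches (red diamonds) and CCAAT box matches (blue squares), on either strand, in each RefSeq promoter window of a kinesin, in bases from the transcript start (grey lines, 250 before to 50 after; genes with several starts have several windows). The CHR matches of 11 of 14 mitotic genes stand out against 1 of 12 transport genes with a window. KIF21B, KIFC2 and KIFC3 are among the transport genes that had no window.

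The libraries held 14663463 to 16615143 counts in shPHF19 cells and 14229878 to 15961787 in control cells, and the kinesins took 0.15 to 0.16% of them in shPHF19 cells and 0.15 to 0.161% in control cells. CPM values are counts scaled to library size with TMM factors, and fold changes are shPHF19 over control, tested with edgeR's quasi-likelihood test over all 13014 genes that passed the expression filter. PHF19 itself stood at 41.1, 36.9 and 33.0 CPM in shPHF19 libraries, against 168, 199 and 189 CPM in control libraries (log2 fold change -2.32, edgeR adjusted p = 3.55e-25). All 8 myeloid markers listed for the line were tested, with a summed level of 13100 to 13900 CPM in shPHF19 and 8270 to 8590 CPM in control libraries. Most of this sum came from MPO and KIT. Of the 8 markers 5 rose, 1 fell and 2 did not pass, where 60.2% of all tested genes changed. CD34, MPO and CD33 had the smallest adjusted p among them, with log2 fold changes of 1.22, 0.97 and 1.04. RUNX1T1 was the marker that fell (log2 fold change -0.37, edgeR adjusted p = 0.000192), and KIT and CEBPA did not pass (0.16 and -0.17). Lymphoid markers summed to 62.5 to 67.4 CPM in shPHF19 and 49.1 to 57.5 CPM in control libraries, erythroid and platelet markers to 19.8 to 23.7 CPM in shPHF19 and 29.1 to 32.5 CPM in control libraries, and epithelial and fibroblast markers to 84.0 to 99.9 CPM in shPHF19 and 56.3 to 72.4 CPM in control libraries. The filter was passed by 5 of 8 lymphoid, 2 of 7 erythroid or platelet and 5 of 8 epithelial or fibroblast markers. The part of these marker shifts in the kinesin values was not tested. Of the lymphoid markers CD3D was higher (log2 fold change 0.55, edgeR adjusted p = 2e-05), while CD3E (-0.91, 0.0229) and CD8A (-0.96, 0.00789) were lower. Most of the last 3 sums came from CD3D, EPOR and EPCAM, while PF4, which defines platelets, had 0 counts in every library.

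Of the 42 kinesins, 31 passed the filter and 17 of these changed, 10 higher and 7 lower in shPHF19 cells, where 60.2% of all tested genes changed, 29.4% higher and 30.9% lower. The share of kinesins that changed, 54.8%, was near that background. The split by role was not even. Among 12 tested mitotic kinesins 8 rose and none fell, with a median log2 fold change of 0.65. Among 13 tested transport kinesins 6 fell and none rose, with a median of -0.14. Over all tested genes the median was -0.03. Scaled by library totals alone, that median stood at -0.24, and 2590 of all genes were higher and 5624 lower, in place of 3820 and 4015. Such a change of scaling shifts all genes alike, so the medians of the mitotic and transport kinesins moved with it, to 0.44 and -0.35. The libraries of the groups did not overlap for 8 mitotic kinesins, all higher in shPHF19, and 6 transport kinesins, all lower, where 30.9% of all tested genes lay wholly higher and 32.6% wholly lower (63.5% together). No test was made over the kinesins as a list.

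**Figure D2:**
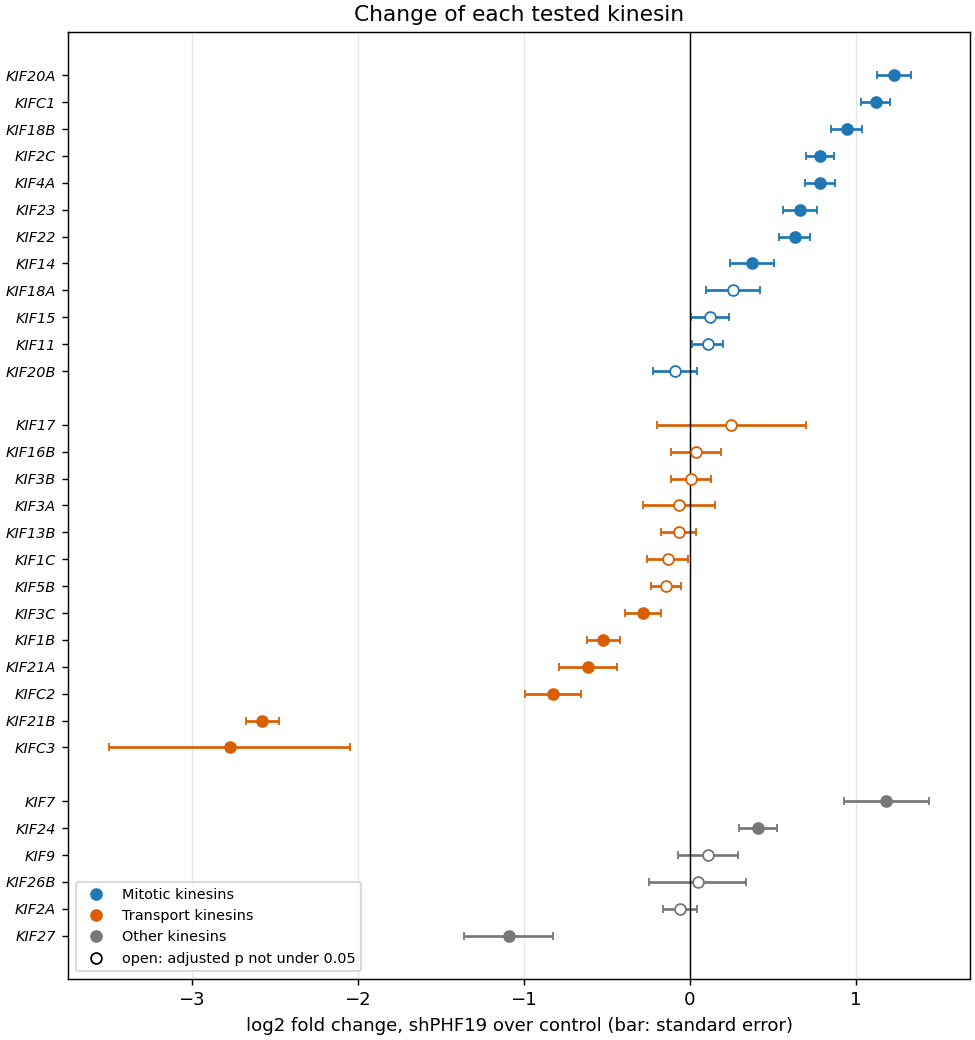
Log2 fold change of the 31 tested kinesins, shPHF19 over control, with standard errors (n = 3 libraries per group), grouped by role. Filled points passed an edgeR adjusted p of 0.05; 8 of 12 mitotic kinesins lie to the right as filled points and 6 of 13 transport kinesins to the left.

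Of the motors of the late mitotic spindle and of cytokinesis, KIF20A, KIF23, KIF4A and KIF14 rose. KIF20A (MKLP2), which brings the chromosomal passenger complex to the spindle midzone, stood at 74.2, 82.3 and 81.7 CPM in shPHF19 libraries, against 32.7, 35.5 and 33.1 CPM in control libraries. Every shPHF19 library was above every control library, by a log2 fold change of 1.23 (SE 0.101, edgeR adjusted p = 9.44e-15), or 2.35-fold. Its gene lies on chromosome 5 from 138178719 to 138187715 (plus strand, GRCh38, GENCODE 29, as are the positions that follow). There its exons share 200 bp with those of BRD8 and CDC23 on the other strand, neither of which passed (log2 fold changes -0.03 and 0.15). The exons of KIF4A share 77 bp with PDZD11 and those of KIF24 143 bp with UBAP1, also on the other strand. KIF23 (MKLP1), the motor subunit of centralspindlin, had 74.5, 85.1 and 91.5 CPM in shPHF19 libraries and 61.4, 45.0 and 52.1 CPM in control libraries. Its groups did not overlap, although both were spread, and the log2 fold change was 0.66 (SE 0.104, edgeR adjusted p = 3.81e-07). KIF4A, a chromosome-bound motor that also sets the length of the midzone with PRC1, had 108, 111 and 117 CPM in shPHF19 libraries and 68.8, 64.0 and 62.7 CPM in control libraries. The 3 values of each group were close together and the log2 fold change was 0.78 (SE 0.0905, edgeR adjusted p = 2.71e-10). KIF14, which recruits citron kinase to the midbody, had 21.8, 25.9 and 23.9 CPM in shPHF19 libraries and 19.4, 17.6 and 18.3 CPM in control libraries. Its rise was the smallest of the 8, with a log2 fold change of 0.38 (SE 0.132, edgeR adjusted p = 0.013), and was not called by library totals (0.17, adjusted p = 0.264), by upper-quartile factors (0.27, adjusted p = 0.0702) or without shPHF19 replicate 2 (0.32, adjusted p = 0.0875).

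Motors that focus spindle poles and act on chromosomes rose as well. KIFC1 (HSET), a minus-end-directed kinesin that focuses spindle poles and clusters extra centrosomes, stood at 181, 170 and 169 CPM in shPHF19 libraries, against 76.7, 83.4 and 79.4 CPM in control libraries. The groups were far apart relative to their spread (log2 fold change 1.12, SE 0.0861, edgeR adjusted p = 1.16e-15). KIF2C (MCAK), which removes tubulin at centromeres and corrects faulty attachments, had 187, 199 and 173 CPM in shPHF19 libraries and 107, 111 and 106 CPM in control libraries, a log2 fold change of 0.78 (SE 0.0851, edgeR adjusted p = 4.78e-11). KIF18B, which shortens astral microtubules and works with KIF2C, had 114, 111 and 106 CPM in shPHF19 libraries and 52.5, 60.7 and 58.4 CPM in control libraries. All 3 shPHF19 libraries lay above the control libraries, with a log2 fold change of 0.95 (SE 0.0928, edgeR adjusted p = 2.64e-12). KIF22 (KID), a chromosome-bound motor that pushes chromosome arms outward, had 137, 120 and 117 CPM in shPHF19 libraries and 76.9, 86.6 and 77.2 CPM in control libraries (log2 fold change 0.63, SE 0.0907, edgeR adjusted p = 5.65e-08).

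The remaining 4 tested mitotic kinesins did not pass the test, and their groups overlapped. KIF11 (Eg5), the plus-end motor that pushes spindle poles apart, had 117, 131 and 145 CPM in shPHF19 libraries and 137, 114 and 114 CPM in control libraries (log2 fold change 0.11, SE 0.0918, edgeR adjusted p = 0.314). KIF15, which holds poles apart beside KIF11, had 40.1, 54.0 and 55.9 CPM in shPHF19 libraries and 51.8, 40.5 and 45.6 CPM in control libraries. Its log2 fold change was 0.12 (edgeR adjusted p = 0.361). Without shPHF19 replicate 1, the lowest of its group, it was called (0.26, edgeR adjusted p = 0.0359; 0.0359 to 0.884 over the alternatives). KIF18A, which damps chromosome movements at the metaphase plate, had 14.8, 11.3 and 12.9 CPM in shPHF19 libraries and 11.9, 9.25 and 11.4 CPM in control libraries, with a log2 fold change of 0.26 (adjusted p by edgeR = 0.165). KIF20B (MPP1), a cytokinesis motor related to KIF20A, had 28.8, 31.9 and 40.6 CPM in shPHF19 libraries and 37.3, 26.9 and 43.8 CPM in control libraries, with a log2 fold change of -0.09 (adjusted p by edgeR = 0.576). The paralogs KIF20A and KIF20B thus had log2 fold changes of 1.23 and -0.09, and KIF18B and KIF18A of 0.95 and 0.26. The differences within these pairs were not tested. KIF11, KIF15, KIF18A and KIF20B each hold a CHR match, as do 6 of the 8 mitotic kinesins that rose, while the other 2 risers, KIF20A and KIF2C, hold none. Few tested mitotic kinesins lack these letters, and whether a CHR match goes with a rise was not tested.

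**Figure D3:**
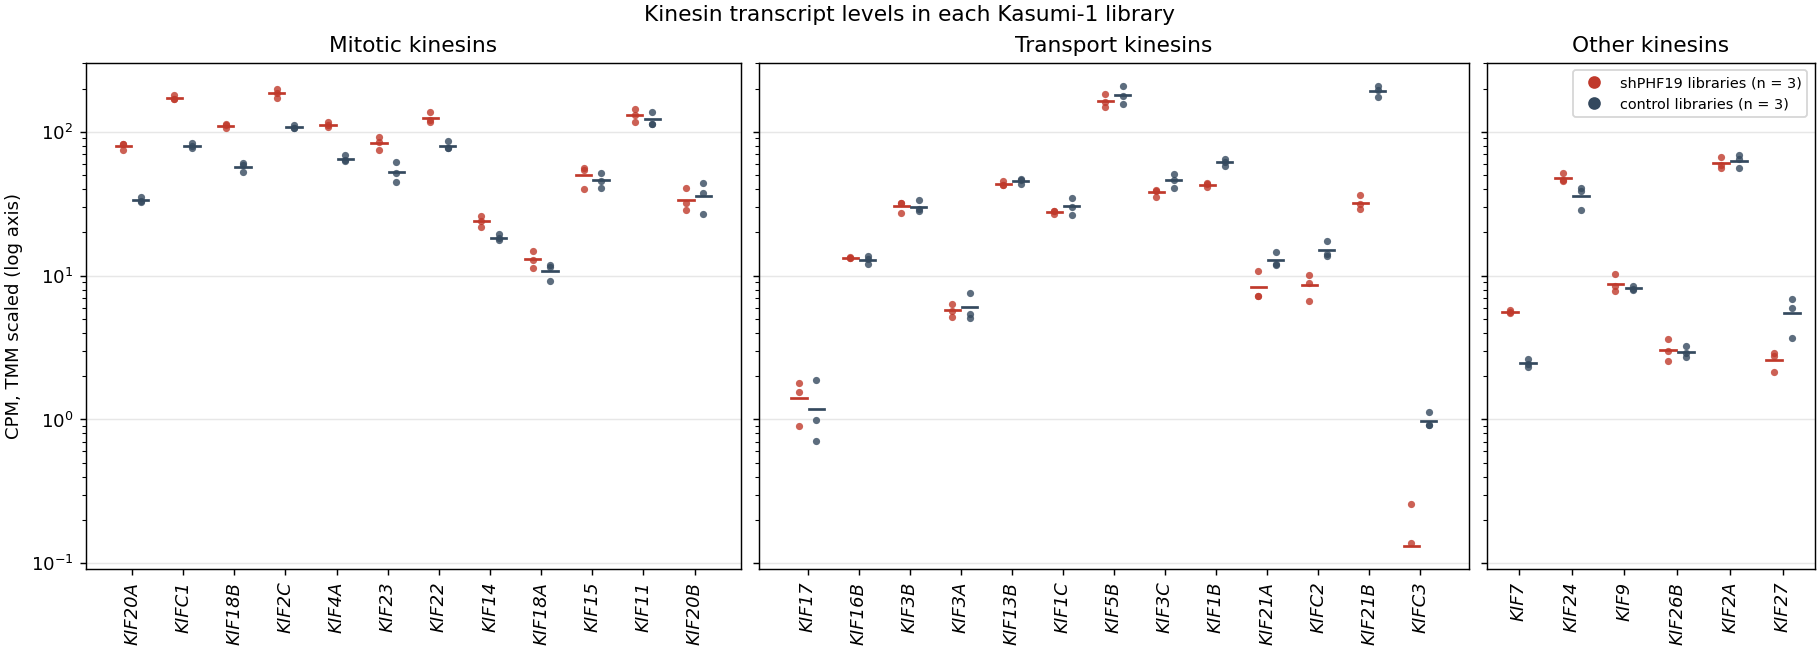
TMM-scaled CPM (log axis) of the 31 tested kinesins in each shPHF19 library (red, left of each pair) and control library (dark blue, right), with the group mean as a line. KIF20A, KIFC1 and KIF18B separate upward and KIF21B separates downward; shPHF19 replicate 1 has 0 counts of KIFC3 and cannot be drawn on this axis.

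Genes that work with the mitotic kinesins rose in the same libraries. Of 18 listed spindle and midbody partners 13 rose, 1 fell and 4 did not pass, with a median log2 fold change of 0.60 (60.2% of all tested genes changed, and their median was -0.03). The 4 chromosomal passenger subunits, which KIF20A carries to the midzone, all rose, with log2 fold changes of 1.07 for AURKB, 1.05 for INCENP, 0.61 for CDCA8 and 1.35 for BIRC5. CCNB1, the cyclin that activates CDK1 at entry into mitosis, rose by 1.40 on the log2 scale (SE 0.0891, edgeR adjusted p = 1.84e-18). CDK1 itself did not pass (log2 fold change 0.04, edgeR adjusted p = 0.748), nor did ECT2 (0.07, 0.578) or ANLN (0.23, 0.0566). PRC1, the midzone bundler that binds KIF4A, had a log2 fold change of 0.90 and CIT, the midbody kinase that binds KIF14, of 0.62. RACGAP1, which pairs with KIF23 in centralspindlin, had a log2 fold change of 0.39 (SE 0.0822, edgeR adjusted p = 7.39e-05), against 0.66 for its motor, a difference that was not tested. TPX2, a spindle assembly factor that binds KIF11, rose by 1.05 on the log2 scale (SE 0.0819, edgeR adjusted p = 1.8e-15), while KIF11 did not pass. HMMR, a spindle protein, was the partner that fell, with a log2 fold change of -0.43 (adjusted p by edgeR = 0.00181). CENPE, the kinetochore motor of the kinesin family that carries another kind of symbol, had a log2 fold change of 0.23 (adjusted p by edgeR = 0.174).

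**Figure D4:**
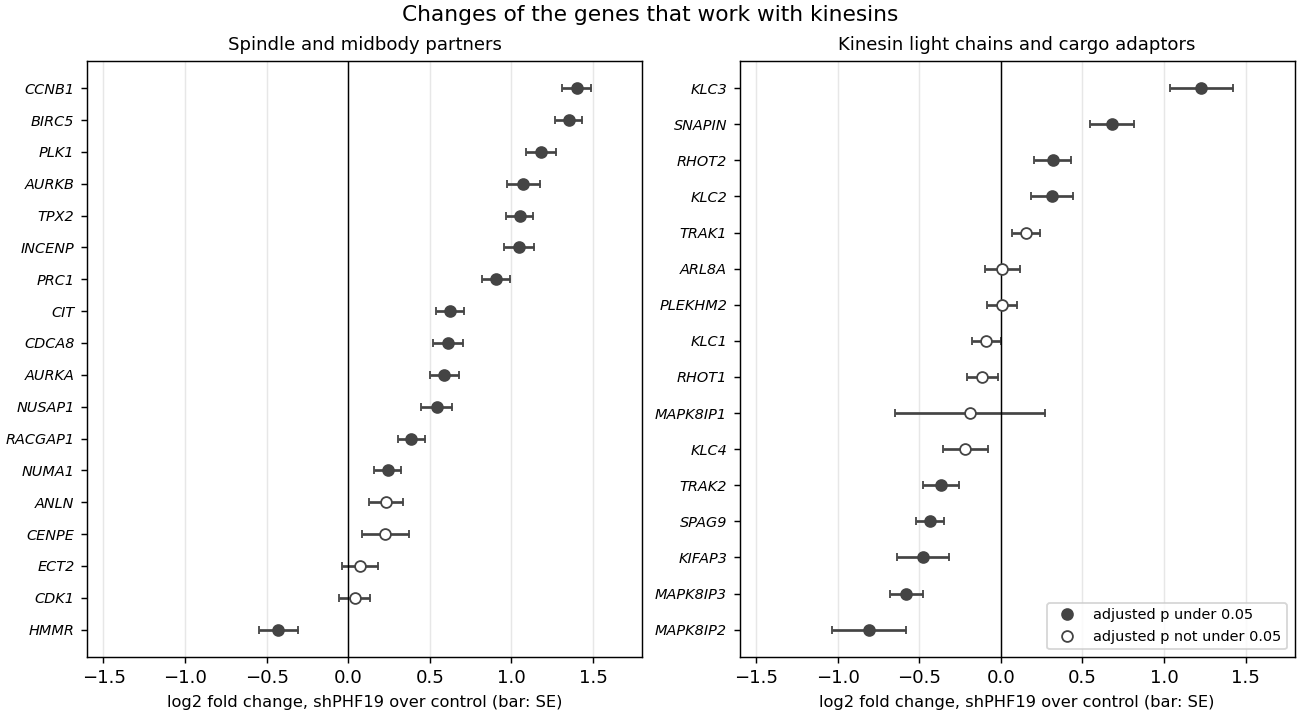
Log2 fold change, shPHF19 over control, with standard errors (n = 3 libraries per group), of 18 spindle and midbody partners (left) and of 16 tested kinesin light chains and cargo adaptors (right). Filled points passed an edgeR adjusted p of 0.05: 13 higher and 1 lower on the left, 4 higher and 5 lower on the right.

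Markers of proliferation moved with the mitotic kinesins. All 8 of the listed markers rose, where 29.4% of all tested genes were higher, with log2 fold changes of 0.32 to 1.07 and a median of 0.68; CDC20 (1.07), MCM2 (0.90) and MCM6 (0.75) had the smallest adjusted p. In bulk RNA a larger share of cells in G2 and M and a higher transcript level per cell cannot be told apart. Of 16 listed regulators of G2/M transcription 6 rose, 1 fell and 9 did not pass, so that 43.8% changed, against 60.2% of all tested genes. MYBL2 (B-MYB), which activates these promoters, had a log2 fold change of 0.92, TFDP1, the dimer partner of E2F factors, of 0.72 and E2F4, the E2F of the DREAM complex, of 0.71. LIN54, the MuvB subunit that contacts the CHR, fell by 0.49 on the log2 scale (edgeR adjusted p = 0.000285).

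KIF21B had the most marked fall among transport kinesins with substantial counts. KIF21B is a neuronal and lymphoid motor that also limits microtubule growth, and it is encoded on chromosome 1 between 200969390 and 201023700 (minus strand). It stood at 36.3, 31.3 and 29.1 CPM in shPHF19 libraries, against 174, 194 and 208 CPM in control libraries. The highest shPHF19 library was far below the lowest control library, and the log2 fold change was -2.58 (SE 0.0991, edgeR adjusted p = 1.54e-26), or 5.96-fold lower. The authors' deposited table lists KIF21B with a log2 fold change of -2.55 (SE 0.105). Its paralog KIF21A had 7.20, 7.26 and 10.7 CPM in shPHF19 libraries and 14.6, 11.8 and 12.1 CPM in control libraries, and fell too (log2 fold change -0.61, SE 0.176, edgeR adjusted p = 0.0025).

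The minus-end-directed KIFC2 and KIFC3 also fell, opposite to KIFC1. KIFC2 had 10.1, 8.88 and 6.68 CPM in shPHF19 libraries and 14.2, 17.4 and 13.7 CPM in control libraries (log2 fold change -0.82, SE 0.17, edgeR adjusted p = 4.62e-05). Its exons share 791 bp with FOXH1 on the other strand, which had at most 4 counts in any library. KIFC3, a motor of adherens junctions and the Golgi, had 0, 4 and 2 counts in shPHF19 libraries and 15, 19 and 14 counts in control libraries. The scaled ratio of control over shPHF19 was 7.14 with an exact 95% (Clopper-Pearson) counting interval of 3.05 to 20.4, which covers counting error only (edgeR adjusted p = 0.000995). The fitted log2 fold change was -2.77, and -3.64 without shPHF19 replicate 2, which had the highest count of its group. KIFC3 was not tested under the filter of 1 CPM in 3 libraries.

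Among the vesicle motors of the KIF1, KIF13 and KIF16 genes, KIF1B fell. KIF1B, which carries mitochondria and vesicle precursors, had 41.4, 43.8 and 43.3 CPM in shPHF19 libraries and 61.6, 57.5 and 65.2 CPM in control libraries, with no overlap (log2 fold change -0.52, SE 0.101, edgeR adjusted p = 1.98e-05). KIF1C, a motor of dense-core vesicles and Golgi traffic, had log2 fold change -0.13 (edgeR adjusted p = 0.356), KIF13B -0.07 (0.596) and KIF16B, a motor of early endosomes, 0.04 (0.846). KIF16B stood at 13.2, 13.2 and 13.4 CPM in shPHF19 libraries and 13.6, 12.1 and 13.1 CPM in control libraries.

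Of the general cargo and ciliary motors, KIF3C was called lower and KIF5B, KIF3A, KIF3B and KIF17 did not pass. KIF5B, the conventional kinesin heavy chain of most tissues, had 149, 161 and 182 CPM in shPHF19 libraries and 208, 157 and 178 CPM in control libraries. These values overlapped and the log2 fold change of -0.14 (SE 0.0917) did not pass (edgeR adjusted p = 0.176). It was called lower without shPHF19 replicate 3 (-0.22, edgeR adjusted p = 0.0375) or control replicate 2 (-0.22, 0.0498), by upper-quartile factors (-0.25, 0.0181) and by library totals (-0.35, 0.00185). In the heterotrimeric motor of intraflagellar transport, KIF3A and KIF3B had log2 fold changes of -0.06 and 0.01 and did not pass, while the accessory subunit KIFAP3 fell (-0.48, edgeR adjusted p = 0.00911). KIF3C, an alternative partner of KIF3A, had 38.5, 39.7 and 35.5 CPM in shPHF19 libraries and 40.8, 51.1 and 46.4 CPM in control libraries. Its log2 fold change of -0.28 (SE 0.109, edgeR adjusted p = 0.0231) was the weakest of the called falls, with adjusted p of 0.0551 with the replicate number as a block. It also missed the threshold without shPHF19 replicate 3 (0.092), control replicate 2 (0.178) or control replicate 3 (0.0638), and in limma-voom after removal of the length trend (adjusted p = 0.0654). KIF17, a ciliary and dendritic motor, was low, at 0.895 to 1.78 CPM in shPHF19 and 0.707 to 1.88 CPM in control libraries, with a log2 fold change of 0.25 (adjusted p by edgeR = 0.647).

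Light chains and adaptors connect transport kinesins to their cargo. Of 20 listed, 16 were in the table under the listed symbols and all were tested; 4 rose, 5 fell and 7 did not pass, with a median log2 fold change of -0.10. The share that changed, 56.2%, was near the 60.2% of all tested genes (29.4% higher and 30.9% lower). Of the light chains that pair with KIF5B, KLC1 and KLC4 did not pass (log2 fold changes -0.09 and -0.22, adjusted p by edgeR = 0.403 and 0.179). KLC2 was called higher (0.315, adjusted p by edgeR = 0.0313). KLC3 rose to 11.7 CPM in shPHF19 cells, against 4.96 CPM in control cells (means, n = 3; log2 fold change 1.23, edgeR adjusted p = 4.12e-07). MAPK8IP3 (JIP3) and SPAG9 (JIP4), related adaptors of kinesin and dynein, had log2 fold changes of -0.58 and -0.43, both called lower. Cytoplasmic dynein, dynactin and their adaptors, which move the opposite way along microtubules, had 7 higher, 10 lower and 8 not passing of 25 tested, or 68.0% changed, also near that background. HOOK3 (-1.01), DCTN1 (0.74) and DYNLL2 (-0.40) had the smallest adjusted p.

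Of the other kinesins, KIF7 and KIF24 rose and KIF27 fell. KIF7, which controls GLI factors at the cilium tip, had 5.49, 5.77 and 5.58 CPM in shPHF19 libraries and 2.64, 2.42 and 2.33 CPM in control libraries (log2 fold change 1.18, SE 0.256, edgeR adjusted p = 9.19e-05). Its exons share 589 bp with TICRR on the other strand, a replication gene that rose (log2 fold change 0.64) and held 1928 to 2144 counts in shPHF19 and 1426 to 1500 counts in control libraries. The strand setting of the counting is unstated in the labels, and what part TICRR reads have in the KIF7 value was not tested. KIF27, a paralog of KIF7, had 2.75, 2.14 and 2.89 CPM in shPHF19 libraries and 6.89, 3.71 and 5.97 CPM in control libraries, with no overlap (-1.09, SE 0.269, edgeR adjusted p = 0.000504). KIF24 had 51.7, 46.6 and 45.4 CPM in shPHF19 libraries and 28.8, 38.5 and 40.5 CPM in control libraries (0.41, SE 0.115, edgeR adjusted p = 0.00184), and was not called by library totals (0.21, 0.123), under which these others numbered 1 higher and 2 lower. KIF2A, a relative of KIF2C that acts on spindles and in interphase, had a log2 fold change of -0.06, KIF9, an axonemal motor, of 0.11 and KIF26B of 0.05, and none passed (edgeR adjusted p = 0.654, 0.624 and 0.897). The exons of KIF2A share 428 bp with those of IPO11 on the same strand. IPO11 rose (log2 fold change 0.57, edgeR adjusted p = 0.00128), and what part its reads have in the KIF2A value was not tested.

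Levels of different genes were compared as CPM per kb of exon. The length was that of all annotated exons of a gene, merged over its transcripts, and not that of the transcripts expressed. Ranks, sums and shares across genes depend on this choice. In shPHF19 cells KIFC1 and KIF2C led, at 51.9 and 51.1 CPM per kb, and their ranges overlapped each other but not those of KIF22 (28.8), KIF5B (27.9) or KIF11 (27.0), which overlapped one another. In control cells KIF5B and KIF2C led, at 30.8 and 29.7 CPM per kb, with overlapping ranges, followed by KIF11 (25.0) and KIFC1 (23.9), which overlapped as well. KIF21B held rank 20 of 31 in shPHF19 cells, at 2.65 CPM per kb, and rank 6 in control cells, at 15.8 CPM per kb. Summed per library, mitotic kinesins reached 258, 263 and 260 CPM per kb in shPHF19 libraries and 163, 158 and 157 CPM per kb in control libraries. Transport kinesins summed to 54.4, 56.5 and 59.1 CPM per kb in shPHF19 libraries and to 80.3, 73.5 and 78.6 CPM per kb in control libraries. Without KIF21B the transport sums were 51.4, 53.9 and 56.7 in shPHF19 libraries and 66.0, 57.5 and 61.5 in control libraries. KIF5B made up 46.5 to 52.3% of the transport sum in shPHF19 libraries and 36.4 to 44.1% in control libraries, while KIF21B made up 4.06 to 5.49% in shPHF19 and 17.8 to 21.8% in control libraries. The mitotic share of the whole kinesin sum was 75.7 to 76.9% in shPHF19 and 60.6 to 62.6% in control libraries.

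**Figure D5:**
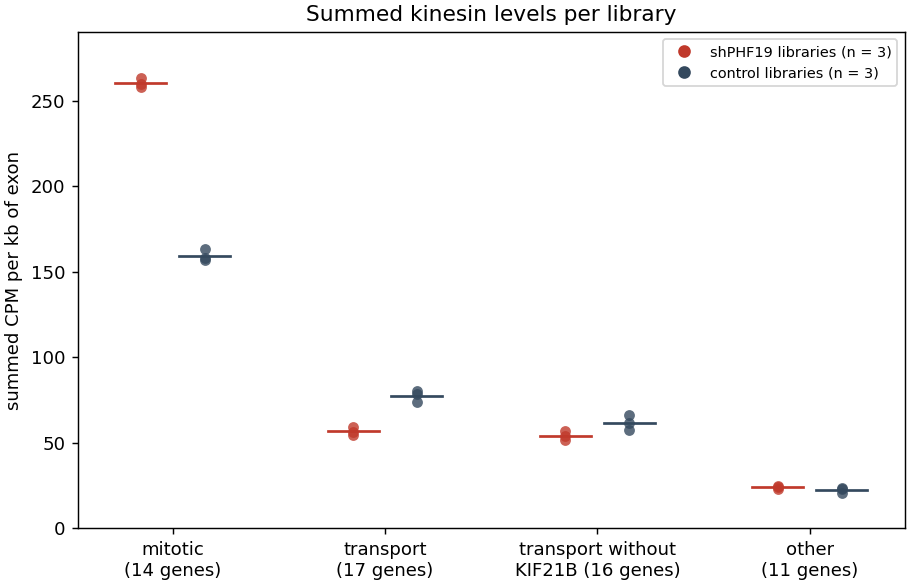
Summed CPM per kb of exon over all counted kinesins of each role, per library, for shPHF19 (red, left of each pair) and control (dark blue, right), with group means as lines. Mitotic sums were 258 to 263 in shPHF19 and 157 to 163 in control libraries. Transport sums were lower in shPHF19 libraries with KIF21B. Without KIF21B they were also lower, but the nearest libraries stood close, at 56.7 (shPHF19) and 57.5 (control).

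The 11 kinesins that failed the filter had at most 4 counts in any library. These were KIF2B, a testis-enriched relative of KIF2C, and KIF4B, an intronless copy of KIF4A, among mitotic kinesins, and KIF1A, KIF5A, KIF5C and KIF13A among transport kinesins. KIF1A, KIF5A and KIF5C are mainly neuronal. KIF6, KIF12, KIF19, KIF25 and KIF26A completed them, and KIF25 and KIF26A had 0 counts in all libraries, which at 3 counts allows up to 0.194 to 0.223 CPM in shPHF19 and 0.177 to 0.195 CPM in control libraries. Reads of KIF4A may be shared with its copy KIF4B, which had 4 counts in shPHF19 and 5 counts in control libraries together.

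Of the 17 kinesins that changed, 13 are in the authors' deposited table, each with the same sign, and the authors' log2 fold changes differed from those given here by at most 0.167. KIF14, KIF3C, KIF21A and KIFC3 are not listed in the authors' deposited table, whose highest adjusted p is 0.00993 and lowest mean normalized signal 10.0. With DESeq2 here, adjusted p was 0.00725 for KIF14, 0.0389 for KIF3C, 0.00537 for KIF21A and 0.00282 for KIFC3. Why they are absent was not tested.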

How the data were processed

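RNA-seq gene counts of 6 libraries, 3 shPHF19 and 3 control, were analysed, with groups and replicate numbers from the sample titles. The authors deposited whole-number counts per gene symbol, not normalized. The build hg38 and the tools HTSeq 0.11.2 and HISAT2 2.1.0 are named, per the submitters' processing notes; annotation and strand setting are not given there. A second table deposited by the authors compares the groups, with a mean normalized signal, log2 fold changes and p-values, for 5740 genes; its tool is not named in these sources.

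The main test used edgeR 4.0.16 (R 4.3.3): filterByExpr (minimum count 10, minimum total 15), TMM factors, group as the only term, robust quasi-likelihood F test, Benjamini-Hochberg over all 13014 genes tested, threshold 0.05. A standard error is the log2 fold change divided by the square root of F. Alternatives used other factors and filters, DESeq2 1.42.0, limma-voom (limma 3.58.1) without and with the exon length trend removed, the replicate number as a block, and each library left out. The fits were tested on simulated data. Chi-square per degree of freedom between replicates was 4.63 to 11.7, above counting error, so no pair was merged as a repeat deposit of 1 library; this does not show separate cultures. Exon lengths and positions came from GENCODE 29 (GRCh38), promoter sequences from RefSeq (GRCh38.p14).

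Named genes are all kinesins that passed the filter, those that failed it, PHF19, and from each other list the 3 called members with the smallest adjusted p, where as many were called. Other genes named from these lists, among them partners of single motors, CENPE, HMMR and LIN54, were chosen after values were seen. The members, roles and lists were chosen with earlier results of these data known. HSET, MKLP and similar names in brackets are common protein names. A few listed genes are not reported here and were left out of their lists.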

Additional observations from a re-analysis of the deposited data

How the results depend on the processing

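The numbers of changed genes (7835), changed mitotic kinesins (8) and changed transport kinesins (6) stayed within 1.5 times of these values in all 15 alternatives that were run. Counting KIF2A as mitotic gave 8 mitotic kinesins, and leaving out KIF21A and KIF21B gave 4 transport kinesins. Both of these counts follow from the calls of the genes that were moved and are no further test. Leaving out 1 library gave 7 to 9 mitotic and 5 to 6 transport kinesins. Library totals gave 7 and 9, the latter at the limit of 1.5 times. Of the 17 kinesins that changed, 14 kept their call and sign in every alternative in which they were tested, and the others (KIF14, KIF24 and KIF3C) kept their sign but lost the call in some, as given above. Same-numbered replicates did not deviate together (r = -0.164, -0.007 and -0.054, against -0.127 to 0.173 for the other pairs). Such values cannot show whether the libraries were prepared in pairs. With the replicate block 7307 genes, 8 mitotic and 5 transport kinesins were called.

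No kinesin that changed turned its sign. Among those that did not pass, the log2 fold change turned its sign without a call in these cases. With library totals only it was -0.10 for KIF11, -0.082 for KIF15, -0.17 for KIF16B, -0.16 for KIF26B, -0.20 for KIF3B and -0.10 for KIF9. With upper-quartile factors it was -0.064 for KIF16B, -0.05 for KIF26B and -0.10 for KIF3B. With the length trend removed it was 0.057 for KIF13B and 0.016 for KIF3A, and with the filter of 1 CPM in 3 libraries -0.002 for KIF3B. Leaving out 1 library gave values from -0.009 to 0.735 for KIF17, -0.249 to 0.081 for KIF20B, -0.097 to 0.175 for KIF26B, -0.131 to 0.015 for KIF2A, -0.162 to 0.142 for KIF3A and -0.03 to 0.087 for KIF3B. KIF13B (-0.27), KIF1C (-0.34) and KIF2A (-0.26) passed as lower by library totals (adjusted p by edgeR 0.0207, 0.0165 and 0.0282). The cause was not tested.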

Other observations

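Kinesin-related transcripts outside the symbol rule were looked at after their values were seen. STARD9, a kinesin that acts on centriolar material in mitosis, had 36.6, 29.6 and 28.1 CPM in shPHF19 libraries and 25.6, 31.4 and 40.1 CPM in control libraries, and did not pass (log2 fold change -0.04, edgeR adjusted p = 0.794). The antisense gene KIF9-AS1 had 1.41, 1.36 and 1.86 CPM in shPHF19 libraries and 5.78, 4.42 and 7.33 CPM in control libraries (log2 fold change -1.91, edgeR adjusted p = 1.89e-07), while KIF9 itself stood at 0.11. The exons of KIF9 share 1048 bp with KIF9-AS1 and KLHL18 together on the other strand, and KLHL18 rose (log2 fold change 0.76, edgeR adjusted p = 4.49e-08).

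Across the 12 tested mitotic kinesins the log2 fold change ran opposite to exon length (Spearman rho -0.74), and across the 31 tested kinesins rho was -0.61, against -0.12 over 12236 genes with a length. These values share the same 6 libraries and describe them only. Length goes with role, since tested mitotic kinesins had a median of 4662 bp of exon and transport kinesins of 7721 bp. With the length trend of all genes removed, 8 mitotic kinesins were called higher and their median log2 fold change was 0.66. This removes the trend over all genes and not the relation within the kinesins. What part length has in the kinesin changes was not tested.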
